A study of Mus musculus with 10 samples.

Results

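The TNF superfamily comprises 43 genes here, chosen as the protein-coding genes whose symbol begins with Tnfsf or Tnfrsf and a number, together with Tnf, Lta, Ltb, Ltbr, Fas, Fasl, Cd27, Cd40, Cd40lg, Cd70, Ngfr and Eda2r. They are 17 ligands and 26 receptors among 54532 genes in the deposited table, of which 22046 are protein-coding. The ligands are trimeric proteins of the cell surface that can be shed, and each binds one or several receptors of the family. Receptors with a death domain recruit adaptors that lead to apoptosis or to NF-κB. Many of the others bind TRAF proteins and act in lymphocyte survival, costimulation, lymphoid tissue and bone, and some are decoys. In the kidney, TNF and its receptors take part in tubular injury and inflammation, and TWEAK (Tnfsf12) acts on tubular cells through Fn14 (Tnfrsf12a).

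Bulk RNA-seq was done on kidneys of wild-type male C57BL/6 mice after unilateral ureteral obstruction (UUO), in which the left ureter is tied so that the kidney becomes inflamed and scarred. Surgery was at 8 weeks of age and kidneys were harvested 14 days later. All 10 kidneys were obstructed, so that no unobstructed kidney enters any comparison. The 5 control mice received PBS, and the 5 DMM mice received dimethyl malonate, an ester of malonate that inhibits succinate dehydrogenase, at 40 mg per kg into the peritoneum every other day. Each library came from 1 kidney. Total counts were 16457495 to 18078777 in the controls (median 17825223) and 15722527 to 19475833 in the DMM kidneys (median 16794390). Summed over the 43 members, 16297 to 22619 counts were found in a library.

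Several libraries stood apart from their group. In the group means that the authors deposited, the counts of control replicate 3 and of DMM replicate 1 carried no weight (0), while the other 8 libraries had weights of 0.227 to 0.271. The reason is not given in the sources used here. Tests of the members given in full below and of the gene lists are therefore given over all 10 libraries, as the labels group them, and over these 8. The other members are given singly over the 10 where tested there, and single genes named from the lists are given over the 8. The 2 sets share libraries and are not independent of each other. If the libraries were left out for their values, the p-values over the 8 are too small. Measured by chi-square per degree of freedom over genes, the 2 libraries closest to each other were control replicate 2 and DMM replicate 1, at 7.68, whereas DMM replicate 1 was at 49.8 to 183 from the other DMM libraries. Control replicate 3 was closest to DMM replicates 2, 5 and 3, at 22, 32.2 and 35.2, and at 35.8 to 80.7 from the other controls. DMM replicate 4 was at 164 to 188 from the other DMM libraries and had 340 of the 16505 tested genes at 0 counts against 1 to 10 in the other libraries. Mitochondrial genes held 5.62% of the counts in DMM replicate 4, 3.79% to 4.39% in DMM replicates 2, 3 and 5, 2.30% in DMM replicate 1, 3.66% in control replicate 3 and 1.97% to 2.30% in the other controls, so that over the 8 libraries the groups did not overlap in this share. Its part in the differences was not tested. Over 16491 genes, the log2 deviation of DMM replicate 4 from the other DMM libraries without replicate 1 had a Spearman rho of -0.485 with the GC content of the longest transcript, against 0.294 to 0.427 for the other DMM libraries, each compared with a set that holds replicate 4, and -0.101 to 0.125 for the controls. Genes are not independent replicates, and these values are a description only. Control replicate 3 had the highest sum of 10 proximal tubule markers among the controls, 11348 CPM (the count relative to the library's size, scaled by TMM) against 1727 to 4437 in the other 4, with Kap the most abundant.

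The comparison asks which ligands and receptors differ in level when DMM is given during obstruction. Over all 10 libraries edgeR's quasi-likelihood test called 0 members. A call needed a p under 0.05 after Benjamini-Hochberg adjustment together with a fold above 1.5, and by this rule 0% of all tested genes were higher and 0% lower. DESeq2 on the same libraries called 1 member higher, Tnfrsf21, and 1 lower, Tnfrsf19, beside 14 and 36 of all tested genes. Without DMM replicate 1 edgeR called Tnfrsf21 higher and Tnfsf10, Cd40, Tnfsf13b and Tnfrsf11a lower, beside 50 and 436 of all tested genes. At an unadjusted p under 0.05 with the same fold, edgeR placed 1 of 35 tested members higher (0 with library size alone as the scaling), against 1.91% of all tested genes, and 9 lower, against 4.11%. Those 9 were Ltb, Tnfsf10, Tnfsf8, Tnfsf9, Cd40, Cd27, Tnfsf13b, Tnfsf11 and Tnfrsf19. The median log2 fold change of DMM against control was -0.44 over the 35 tested members and 0.019 over all 16505 tested genes, and 29 of the 35 (82.9%) lay below 0 against 47.2% of all. With RLE scaling 28 of the 35 lay below 0, Ngfr having crossed to above 0. Since filtering on low counts can favour genes that are high in 1 group, these counts describe the members that passed and are not a test of the family.

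Over the 8 libraries, Tnfrsf21 rose and 6 members fell, namely Tnfsf10, Cd40, Tnfsf13b, Tnfrsf11a, Tnfrsf11b and Tnfrsf1b, out of 36 tested. Among all 16550 tested genes 2.73% were called higher and 3.56% lower. The median log2 fold change was -0.67 over the 36 tested members and 0.021 over all tested genes, and 30 of the 36 lay below 0. With library size alone as the scaling, the median of all tested genes was -0.093, the split of calls went from 452 higher and 590 lower to 276 and 700, and 33 members lay below 0, with Tnfrsf22, Tnfrsf23 and Tnfsf15 having crossed. Values of the groups did not overlap in 12 of the 36 members, against 20.1% of all genes, while over all 10 libraries they did not overlap in 1 of 35, Tnfrsf13b, against 1.95% of all genes. The number of members called lower rested on single libraries, being 17 without DMM replicate 4 (of 1281 genes called lower in all), 3 without DMM replicate 5 (of 302), and 2 (Tnfsf10 and Cd40) without DMM replicate 3, control replicate 4 or control replicate 5 (of 308, 317 and 276). In bulk kidney RNA, fewer cells of a type and less RNA per cell cannot be told apart.

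**Figure D1:**
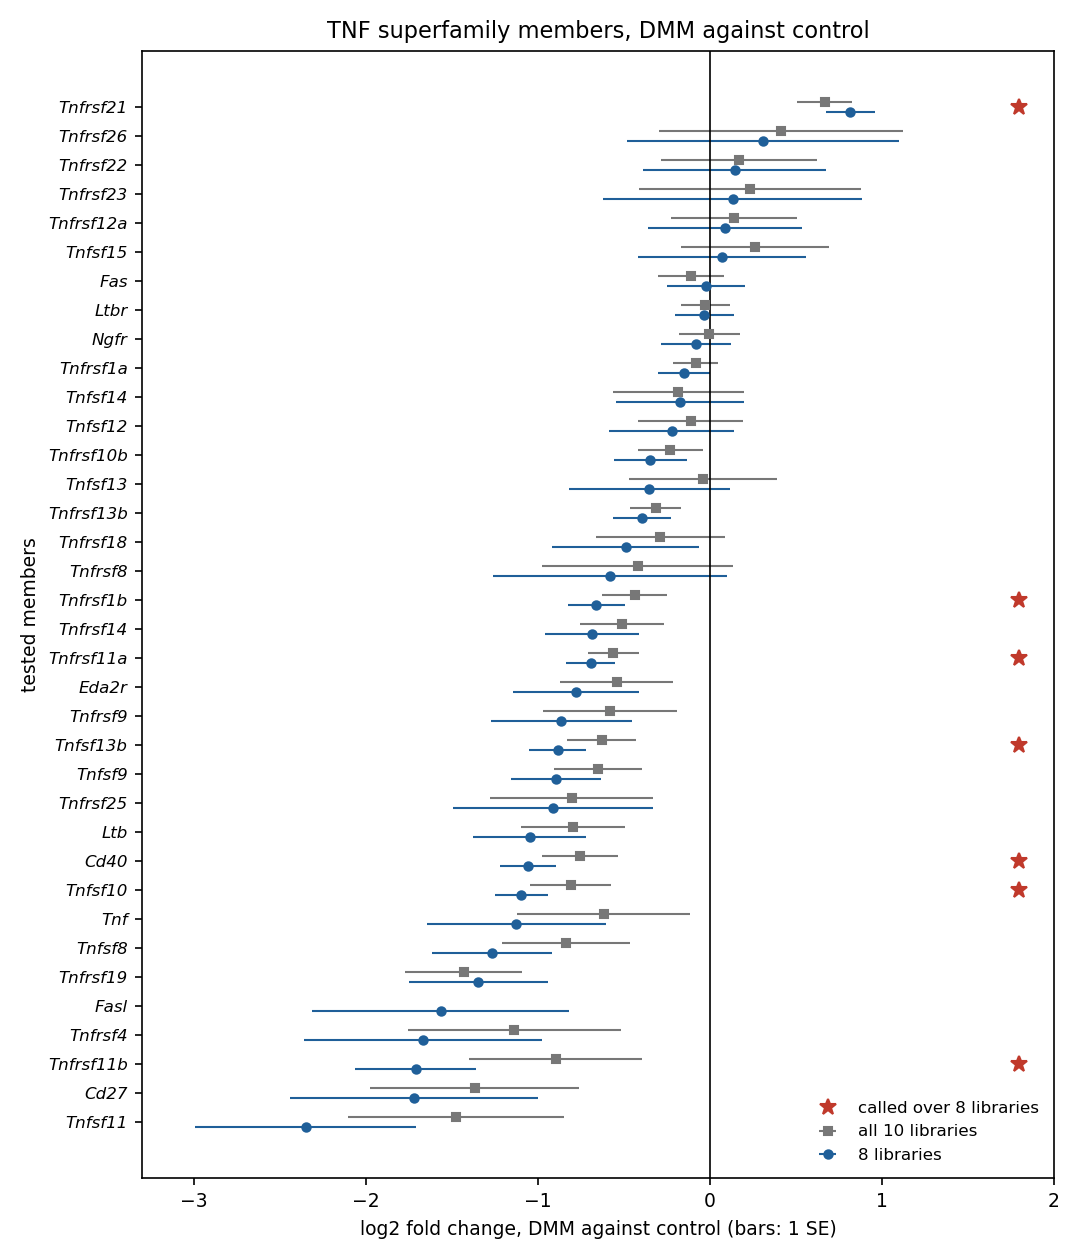
Log2 fold change of DMM against control for the tested members, over all 10 libraries (squares) and over 8 (circles), with bars of 1 SE and a star at each member called over the 8. Of the 36 members 30 lie below 0 over the 8 libraries, and Tnfrsf21 is the called member above 0, at 0.82. Tnfsf11 is lowest, at -2.35 over the 8, with a wide bar, and passed the filter there through the controls alone.

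Levels of different genes were compared by deposited FPKM, which divides by gene length. In controls the median FPKM was highest for the receptors Tnfrsf1a (76.8), Tnfrsf21 (49.8), Ltbr (45.7), Tnfrsf12a (44.8) and Tnfrsf1b (24.6). Among ligands it was highest for Tnfsf10 (31.6), Tnfsf12 (11.1) and Ltb (6.80). A median of at least 1 FPKM in controls was reached by 30 of the 43 members, 8 ligands and 22 receptors, and in DMM kidneys by 24. In DMM kidneys Tnfrsf21 came first, with a median of 81.5 FPKM, and Tnfrsf1a had 76.3, with ranges that overlapped, while Tnfsf10 stayed the most abundant ligand by median, with 16.4. The ranges of Tnfsf10 and Tnfsf12 also overlapped in DMM kidneys (12.5 to 31.1 and 3.27 to 13.4), and Tnfsf12 was the higher in DMM replicate 2. Tnf itself had a median of 2.05 FPKM in controls and 1.27 in DMM kidneys, so its transcript was far below those of its receptors. In controls the FPKM of Tnfrsf21, Ltbr and Tnfrsf12a overlapped across libraries (39.0 to 56.5, 42.5 to 47.0 and 36.2 to 48.2), so that the order of these 3 lies within their spread, whereas the lowest Tnfrsf1a, 68.7, was above all of them.

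Among the ligands, Tnfsf10 (chr3:27317028-27342427, plus strand, mm10), which encodes TRAIL, an inducer of apoptosis through death receptors, was the most abundant by median FPKM and had the smallest p of the members over the 8 libraries. CPM with TMM scaling, given here and below in the order of replicates 1 to 5, was 168, 133, 168, 177 and 191 in controls and 164, 66.4, 86.8, 89.9 and 70.3 in DMM kidneys. DMM replicate 1 lay among the controls, and the other 4 DMM libraries lay below every control. Tnfsf10 fell over the 8 libraries, with means of 167 ± 24.8 CPM (SD, 4 libraries a group) against 78.3 ± 11.7 and a log2 fold change of -1.10 (SE 0.15, edgeR adjusted p = 0.00531). Over all 10 it was -0.81 (SE 0.23, edgeR adjusted p = 0.378). The call over the 8 held without any single library and in DESeq2, but was lost with the replicate number as a block (edgeR adjusted p = 0.111).

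For its mouse death receptor Tnfrsf10b the groups overlapped and no difference was called. It had 12.1, 11.8, 11.3, 14.7 and 10.5 CPM in controls and 12.8, 13.4, 7.76, 9.85 and 7.72 in DMM kidneys (log2 fold change -0.23, SE 0.19, edgeR adjusted p = 0.628 over all 10, and -0.35, SE 0.21, adjusted p = 0.398 over the 8). Of Tnfrsf22 and Tnfrsf23, mouse receptors that bind TRAIL without a death domain, Tnfrsf23 was far higher in 1 library of each group than in the rest, and Tnfrsf22 in 1 DMM library. Tnfrsf23 had 7.63, 9.65, 6.47, 34.6 and 11 CPM in controls and 12.6, 7.37, 6.23, 47.6 and 7.90 in DMM kidneys. Tnfrsf22 followed the same order at the top, with 8.21, 11.8, 7.31, 16.5 and 10.1 CPM in controls and 9.07, 8.76, 5.38, 30.7 and 6.81 in DMM kidneys. Both were highest in DMM replicate 4, followed by control replicate 4, and their log2 fold changes over all 10, 0.17 (SE 0.45) and 0.23 (SE 0.65) for Tnfrsf22 and Tnfrsf23, became -0.52 and -0.70 without DMM replicate 4, with none called. Over the 8 they were 0.14 (SE 0.53) and 0.13 (SE 0.75), and -0.74 and -1.14 without DMM replicate 4. They lie beside Tnfrsf26 on chromosome 7, at chr7:143634806-143649661 and chr7:143665809-143685872 on the minus strand, and as paralogs they are given as uncertain, since how the authors' counting split reads among such genes is not given.

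The B cell survival ligand Tnfsf13b (BAFF, chr8:10006467-10039072, plus strand) fell over the 8 libraries. It had 26.8, 24.3, 19.8, 28.2 and 29.8 CPM in controls and 24.2, 18.4, 12.1, 12.4 and 16.2 in DMM kidneys, where replicate 1 again lay among the controls. The means over the 8 were 27.3 ± 2.34 and 14.8 ± 3.06 CPM, and the log2 fold change was -0.88 (SE 0.17, edgeR adjusted p = 0.0165), and over all 10 it was -0.63 (SE 0.20, edgeR adjusted p = 0.385). The call was lost without control replicate 4, control replicate 5 or DMM replicate 3, with adjusted p of 0.000123 to 0.263 over the alternatives. Its receptor Tnfrsf13b (TACI) had 8.74, 7.53, 7.31, 8.14 and 8.18 CPM in controls and 7.28, 7.06, 5.61, 7.01 and 5.11 in DMM kidneys. Every control lay above every DMM library, yet by a narrow margin, and the difference was not called (log2 fold change -0.32, SE 0.15, edgeR adjusted p = 0.468 over all 10, and -0.40, SE 0.17, adjusted p = 0.217 over the 8). The other BAFF receptors, Tnfrsf13c and Tnfrsf17, had at most 12 and 2 counts in any library and were not tested.

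Tnfsf8 and Tnfsf9, ligands of T cell costimulation, were not called by edgeR with TMM over either set, while over the 8 DESeq2 called both lower and edgeR with library size alone called Tnfsf8 lower. Tnfsf8 (CD30 ligand) had 19.1, 21.4, 11.1, 23.9 and 22.0 CPM in controls and 18.6, 14.1, 4.02, 11.6 and 6.26 in DMM kidneys (log2 fold change -0.84, SE 0.37, edgeR adjusted p = 0.449 over all 10, and -1.27, SE 0.35, adjusted p = 0.0630 over the 8). Control replicate 3 was the lowest control and lay among the DMM libraries, which reached 18.6. Tnfsf9 (4-1BB ligand) had 2.44, 3.06, 2.14, 3.62 and 1.94 CPM in controls and 2.47, 1.39, 1.64, 1.45 and 1.46 in DMM kidneys (log2 fold change -0.65, SE 0.26, edgeR adjusted p = 0.413 over all 10, and -0.89, SE 0.26, adjusted p = 0.0783 over the 8). The 4 DMM libraries other than replicate 1 lay close together, at 1.48 ± 0.111 CPM, and below every control, and replicate 1 lay among the controls. Tnfsf9 overlaps Gm11110 on the other strand, and its reads cannot be told from those of that gene.

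In the TNF and lymphotoxin group, Tnf, the founding ligand of the family, was at 3.39, 2.35, 3.09, 3.40 and 5.59 CPM in controls and 4.88, 2.46, 2.10, 0.302 and 1.88 in DMM kidneys. DMM replicate 1 exceeded all but 1 control, and DMM replicate 4 was far below every other library. The log2 fold change was -0.62 (SE 0.50, edgeR adjusted p = 0.627) over all 10 libraries and -1.12 (SE 0.52, adjusted p = 0.254) over the 8, and the groups overlapped in both sets. Ltb, which forms lymphotoxin heterotrimers that act in lymphoid tissue, had 8.58, 15, 10, 10.4 and 16.1 CPM in controls and 10.4, 9.14, 6.06, 3.2 and 5.77 in DMM kidneys. Its log2 fold change was -0.79 (SE 0.30, edgeR adjusted p = 0.405) over all 10 and -1.05 (SE 0.33, adjusted p = 0.0967) over the 8. DESeq2 called Ltb lower over the 8, as did edgeR when DMM replicate 4 was left out of them. All 7 tested members of the group lay below 0 in both sets, though without DMM replicate 4 Ltbr was above 0 in both and Tnfrsf1a over the 10, and without control replicate 4 Tnfsf14 was above 0 in both.

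Over all 10 and over the 8, Tnfsf12 (TWEAK) and its receptor Tnfrsf12a differed between groups by less than the spread between libraries. DMM replicate 4, which is in both sets, was lowest in both genes. Tnfsf12 had 16.2, 17, 16.8, 21.2 and 17.3 CPM in controls and 20.4, 19.7, 20.2, 5.01 and 16.7 in DMM kidneys (log2 fold change -0.11, SE 0.30, edgeR adjusted p = 0.891 over all 10, and -0.22, SE 0.37, adjusted p = 0.770 over the 8). Tnfrsf12a had 70.6, 91.4, 70.7, 93.6 and 86.9 CPM in controls and 92.0, 114, 119, 19.9 and 111 in DMM kidneys (log2 fold change 0.14, SE 0.37, edgeR adjusted p = 0.884 over all 10, and 0.086, SE 0.45, adjusted p = 0.933 over the 8). Without DMM replicate 4 the log2 fold change over the others of the 10 was 0.12 for Tnfsf12 and 0.40 for Tnfrsf12a, neither of them called. Tnfsf12 overlaps Tnfsfm13 on the same strand and Tnfsf13os on the other, so that its counts are given as uncertain.

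Tnfsf11 (RANKL) is known for driving osteoclasts through RANK and was among the lowest members here. It had 0.794, 0.647, 0.394, 0.798 and 0.647 CPM in controls and 0.617, 0.189, 0.0567, 0 and 0.304 in DMM kidneys. The log2 fold change was -1.48 (SE 0.63, edgeR adjusted p = 0.435) over all 10 libraries and -2.35 (SE 0.64, adjusted p = 0.0629) over the 8, and at this depth the difference rests on a few counts per library. Over the 8, Tnfsf11 was called lower by DESeq2, and by edgeR when DMM replicate 4 was left out. Over the 8 it had 11 to 15 counts in controls and 0 to 5 in DMM kidneys. It thus passed edgeR's filter through the controls alone, and its edgeR values over the 8 are a description only. The DMM libraries other than replicate 1 lay below every control. Its receptor Tnfrsf11a (RANK, chr1:105780718-105847981, plus strand) had 20.3, 16.8, 19.8, 22.3 and 21.3 CPM in controls and 18.1, 13.5, 12.0, 11.1 and 13.4 in DMM kidneys. Again DMM replicate 1 alone lay among the controls. Tnfrsf11a fell over the 8, from 20.2 ± 2.4 to 12.5 ± 1.14 CPM, with a log2 fold change of -0.69 (SE 0.14, edgeR adjusted p = 0.0231), and over all 10 it was -0.56 (SE 0.15, adjusted p = 0.378).

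Tnfrsf11b (osteoprotegerin, chr15:54250619-54278484, minus strand), the soluble decoy that binds RANKL and TRAIL, had 3.92, 4.06, 1.74, 5.27 and 6.12 CPM in controls and 5.43, 2.39, 0.737, 1.51 and 1.28 in DMM kidneys. Control replicate 3 and DMM replicate 1 were the libraries that overlapped. It fell over the 8, from 4.84 ± 1.04 to 1.48 ± 0.691 CPM, with a log2 fold change of -1.71 (SE 0.35, edgeR adjusted p = 0.0233), the largest of the 7 called members, and over all 10 it was -0.90 (SE 0.50, adjusted p = 0.526). The calls of Tnfrsf11a and Tnfrsf11b over the 8 were each lost without control replicate 4, control replicate 5, DMM replicate 3 or DMM replicate 5, that of Tnfrsf11a also without control replicate 1 and that of Tnfrsf11b without control replicate 2. Over the alternatives the adjusted p was 0.000722 to 0.361 for Tnfrsf11a and 0.000114 to 0.228 for Tnfrsf11b.

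The receptor Tnfrsf21 (DR6, chr17:43016555-43089189, plus strand), a death-domain receptor, was the 1 member of 36 that edgeR called higher over the 8 libraries. It had 162, 206, 234, 196 and 227 CPM in controls and 233, 296, 390.4, 339 and 370.0 in DMM kidneys. DMM replicate 1 lay within the controls, and the other 4 exceeded every control. It rose over the 8 from 198 ± 27.2 to 349 ± 41.1 CPM, a fold of 1.76 and a log2 fold change of 0.82 (SE 0.14, edgeR adjusted p = 0.0120). Over all 10 it was 0.67 (SE 0.16, edgeR adjusted p = 0.378). The call over the 8 held without any single library, but was lost with the replicate number as a block (edgeR adjusted p = 0.248).

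Cd40 (chr2:165055627-165072948, plus strand), the costimulatory receptor of B cells and macrophages for CD40 ligand, had 23.5, 25.0, 19.7, 24.6 and 27.4 CPM in controls and 23.0, 14.5, 13.1, 9.06 and 11.7 in DMM kidneys. DMM replicate 1 lay among the controls and the other 4 lay below all of them. Over the 8, Cd40 fell from 25.1 ± 1.67 to 12.1 ± 2.32 CPM, with a log2 fold change of -1.05 (SE 0.16, edgeR adjusted p = 0.00808). That call for Cd40 held without any single library, but was lost with the replicate number as a block (edgeR adjusted p = 0.143). Over all 10 it was -0.75 (SE 0.22, edgeR adjusted p = 0.378). Its ligand Cd40lg had at most 14 counts in any library and was not tested. Cd27, a receptor of T and B cells, had 1.43, 2.41, 1.74, 2.18 and 3.65 CPM in controls and 1.48, 1.45, 0.567, 0 and 0.912 in DMM kidneys (log2 fold change -1.37, SE 0.61, edgeR adjusted p = 0.449 over all 10, and -1.72, SE 0.72, adjusted p = 0.207 over the 8). The groups overlapped, and DMM replicate 4 had no read. Cd27 overlaps Vamp1 on the other strand, which had a mean of 294 counts against its own 27.4, so its reads cannot be told from those of Vamp1 without strand.

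Tnfrsf1b (TNFR2, chr4:145213463-145246870, minus strand), the receptor of TNF that leukocytes carry, had 94.9, 88.0, 72.8, 106 and 103 CPM in controls and 94.9, 66.8, 49.9, 80.0 and 51.2 in DMM kidneys. It fell over the 8, from 97.8 ± 8 to 62 ± 14.2 CPM, where the groups did not overlap, with a log2 fold change of -0.66 (SE 0.17, edgeR adjusted p = 0.0473), close to the threshold. The call was lost without any single one of the 8 libraries other than DMM replicate 4, with adjusted p between 0.00131 and 0.343 over the alternatives, and over all 10 it was -0.44 (SE 0.19, adjusted p = 0.436). Tnfrsf1a (TNFR1), the death-domain receptor found on most cells, had 181, 201, 179.6, 206 and 202 CPM in controls and 204, 185, 199, 129 and 199.7 in DMM kidneys, where replicate 4 alone was low. Ltbr, the lymphotoxin receptor, showed the same, with 112, 109, 108, 108 and 100.4 CPM in controls and 108, 113, 121, 69.2 and 116 in DMM kidneys. For Tnfrsf1a the log2 fold change was -0.082 (SE 0.13, edgeR adjusted p = 0.814) and for Ltbr -0.027 (SE 0.14, adjusted p = 0.946) over all 10. Over the 8 they were -0.15 (SE 0.15, edgeR adjusted p = 0.611) and -0.032 (SE 0.17, adjusted p = 0.936).

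Tnfrsf19 (TROY), a receptor of epithelial and neural progenitors, had the smallest unadjusted p of all members over the 10 libraries, 0.00137. Its CPM was 11.3, 7.12, 8.94, 4.63 and 3 in controls and 2.72, 2.14, 1.93, 3.02 and 3.16 in DMM kidneys. Here DMM replicate 1 was as low as the other DMM libraries, and the spread lay among the controls, of which replicate 5 lay within the DMM libraries. The log2 fold change was -1.43 (SE 0.34, edgeR adjusted p = 0.378) over all 10 libraries and -1.35 (SE 0.40, adjusted p = 0.0835) over the 8. DESeq2 called it lower over both sets.

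**Figure D2:**
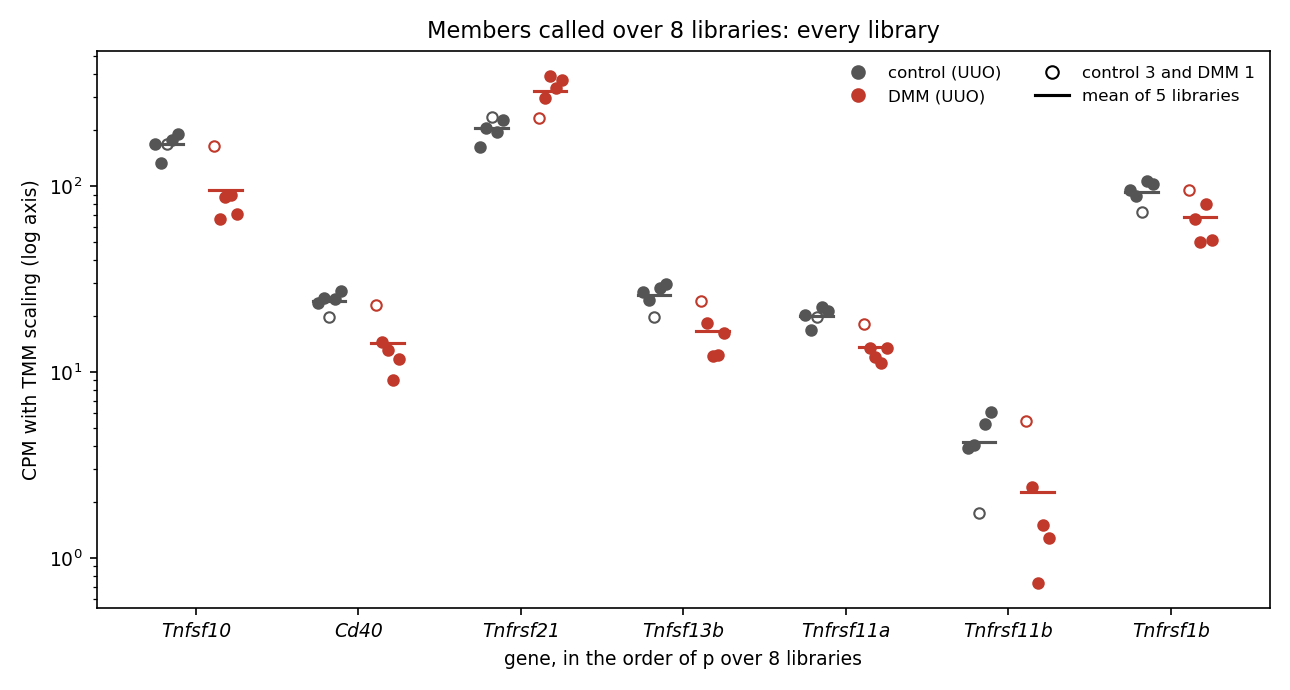
CPM with TMM scaling, on a log axis, in each of 10 libraries for the 7 members called over 8 libraries, with control in grey, DMM in red and a line at the mean of 5. Open circles are control replicate 3 and DMM replicate 1, both left out of the fit that called these genes. In each of them DMM replicate 1 lies within the range of the controls, for example at 164 CPM in Tnfsf10 against 66.4 to 89.9 in the other DMM libraries.

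The other 13 members tested over all 10 libraries, given over that set, had log2 fold changes between -1.14 (Tnfrsf4) and 0.42 (Tnfrsf26), with a smallest adjusted p of 0.480. Fas, the receptor of FAS ligand, lay at -0.11 (SE 0.19), and Ngfr, the p75 neurotrophin receptor, at -0.0024 (SE 0.18). Over the 8 libraries these 13 members and Fasl ran from -1.67 (Tnfrsf4) to 0.31 (Tnfrsf26), with a smallest edgeR adjusted p of 0.184. Over all 10 libraries and by group, all 8 tested members of costimulation, all 3 of B cell survival and all 3 of the RANK group lay below 0. In the group of death receptors, death ligands and related receptors, 4 of 9 tested members did. That group counts Tnfrsf22 and Tnfrsf23, which lack a death domain, and their neighbour Tnfrsf26. Of the members of that group above 0, Tnfrsf22, Tnfrsf23, Tnfrsf26 and Tnfsf15 were highest in DMM replicate 4. Tnfrsf26 had 23.0 CPM there against 1.98 to 4.57 in the other DMM libraries, and Tnfsf15 had 24.0 against 4.53 to 11.7. Without that library Tnfrsf22 and Tnfrsf23 lay below 0, as given above. From the 8 libraries without it, edgeR called Tnfsf15 lower. Tnfsf13 in the B cell group, at -0.039 (SE 0.43), was above 0 without control replicate 1, control replicate 4, DMM replicate 3 or DMM replicate 4. It is uncertain, since it overlaps Tnfsfm13 on the same strand and Tnfsf13os on the other, which had means of 25.9 and 8.1 counts against its own 13.2. The members that were not tested over all 10 libraries were Lta, Fasl, Cd40lg, Cd70, Tnfsf4, Tnfsf18, Tnfrsf13c and Tnfrsf17, with at most 31 counts in any library, reached by Fasl. Of these, Fasl passed the filter over the 8 libraries (log2 fold change -1.56, SE 0.75, edgeR adjusted p = 0.269). It had 8 to 31 counts there in controls and 0 to 10 in DMM kidneys, and so passed mostly through the controls.

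Other genes of the pathway, a list of 64 that carry TNF receptor signals or process the ligands, with 4 (Eda, Edar, Relt and Edaradd) that belong to the family or its signalling but not to the rule above, were mostly not called. Over all 10 libraries edgeR and DESeq2 called 0, with 5 lower and 0 higher at an unadjusted p under 0.05 and a fold above 1.5, against 4.11% and 1.91% of all tested genes. Over the 8 libraries edgeR called 8 of the 64 lower and 1 higher (DESeq2 7 and 1), against 3.56% and 2.73% of all tested genes by edgeR. The list had a median log2 fold change of -0.10 over all 10 and -0.17 over the 8, with 39 of the 64 below 0 in both. The called genes of smallest p were Nfkbie, an inhibitor of NF-κB (log2 fold change -0.90, SE 0.12, edgeR adjusted p = 0.00405), and Rnf31, the catalytic subunit of the linear ubiquitin ligase (-0.74, SE 0.10, adjusted p = 0.00447). Ripk3, the kinase of necroptosis (-1.10, SE 0.21), Ikbke, a kinase related to the IκB kinases (-0.98, SE 0.18), and Chuk, which encodes IKKα (0.61, SE 0.12), had edgeR adjusted p of 0.0162, 0.0164 and 0.0192.

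A list of 25 interferon-induced genes stood apart from the members in size. All 25 were called lower over the 8 libraries, against 3.56% of all tested genes, with a median log2 fold change of -2.93. Over all 10 the median was -1.77, and edgeR and DESeq2 called 0. At an unadjusted p under 0.05 and a fold above 1.5 all 25 were lower over the 10, against 4.11% of all tested genes. Oasl1 had a log2 fold change of -3.46 (SE 0.16, edgeR adjusted p = 6.88e-05) over the 8. The list summed to 6865, 4491, 5046, 6898 and 6642 CPM in controls and 5459.7, 963, 847, 878 and 719 in DMM kidneys. Irf7 had the highest CPM of the list in control replicates 1, 3 and 5 and not in the other libraries. DMM replicate 1 lay among the controls in this list as it did in all 7 members called over the 8. That likeness was partly built in, since the 7 were called in a fit without this library. The list was also chosen because an earlier look at these data found it to set libraries apart. Over all genes too, DMM replicate 1 was closest to a control, at a chi-square per degree of freedom of 7.68. The part of the interferon genes in the differences of the members was not tested.

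Marker lists of leukocytes had medians below 0 over both sets. Over all 10 libraries the median log2 fold change was -0.99 for T cell markers, -0.66 for macrophage and monocyte markers, -0.30 for B cell markers and 0.65 for proximal tubule markers. Of these markers, edgeR and DESeq2 called 0 over the 10, where 8, 6 and 1 were lower and 2 proximal tubule markers higher at an unadjusted p under 0.05 and a fold above 1.5. Of 10 T cell markers 2, Cd2 and Cd4, were called lower by edgeR over the 8 libraries (median log2 fold change -1.17), and they summed to 61.1, 62.8, 60.8, 50.8 and 87.1 CPM in controls and 54.3, 45.3, 19.7, 25.1 and 24.0 in DMM kidneys, with Cd4 at the highest CPM in each library and none at 0 in any library. Of 10 macrophage and monocyte markers 3 (Ly6c2, Cd68 and C1qb) were called lower (median -0.96), with Lyz2 at the highest CPM in each library but DMM replicate 4 and sums of 2366, 2422, 1888, 2151 and 2572 CPM in controls and 2227, 1582, 1249.6, 1021 and 1274 in DMM kidneys. Of 8 B cell markers 6 were tested and 1, Cd22, was called lower (median -0.70). Cd22 had the highest CPM of them in DMM replicate 1 and in the controls other than replicate 3, and Cd79b in the other libraries. The B cell markers summed to 16.4, 17.3, 14.6, 19.8 and 19.5 CPM in controls and 17.9, 14.2, 8.5, 7.19 and 10.4 in DMM kidneys, and 3 of the 8 were at 0 in DMM replicate 4. Proximal tubule markers went the other way, with 2 of 10 called higher over the 8 (median 1.36), a set without control replicate 3, whose sum is given above. Over the 8 libraries DESeq2 called more of these markers, 6 T cell, 7 macrophage and monocyte and 2 B cell markers lower and 7 proximal tubule markers higher. For Cd40, Tnfsf13b, Tnfsf8, Ltb, Cd27 and Tnfrsf1b, which leukocytes express, the part of cell numbers was not tested. The p53 targets, listed since Fas, Tnfrsf10b and Eda2r are known targets of p53, had 0 of 16 called by edgeR over either set (0 and 1 at an unadjusted p under 0.05 and a fold above 1.5 over the 10 and the 8, and 0 and 1 by DESeq2), with medians of -0.11 and -0.12.

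**Figure D3:**
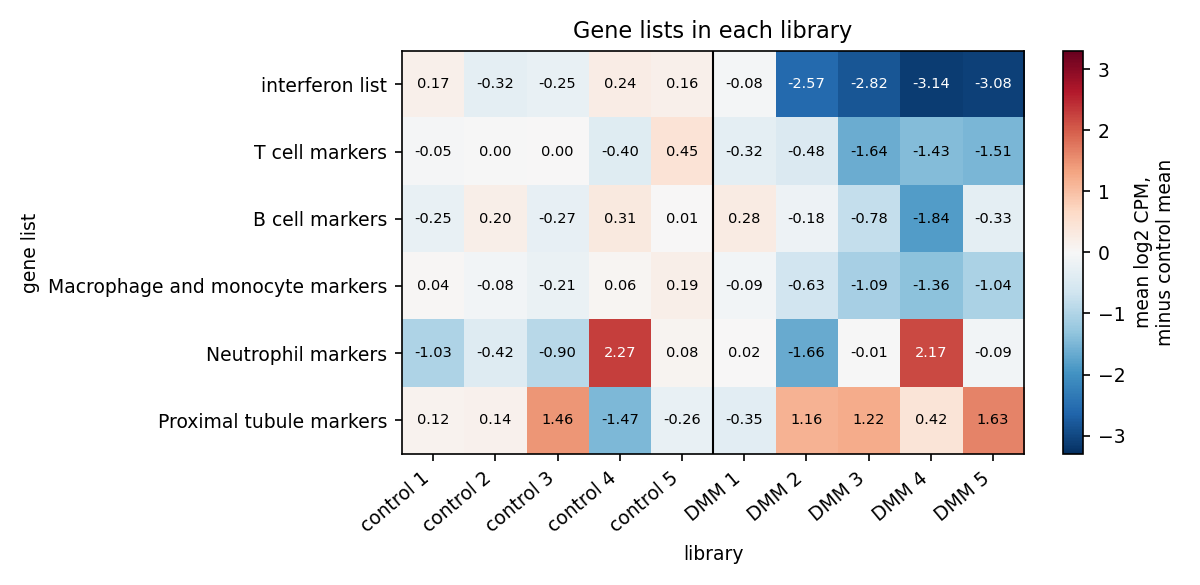
Mean log2 CPM of 6 gene lists in each library, minus the mean of the 5 controls, on a colour scale from blue (lower) to red (higher). The interferon list is between -3.14 and -2.57 in DMM replicates 2 to 5 and at -0.08 in DMM replicate 1, and the neutrophil markers are highest in control replicate 4 and DMM replicate 4, at 2.27 and 2.17.

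Promoters are shown for members called over the 8 libraries, of which 6 fell and Tnfrsf21 rose. RefSeq promoters of build GRCm38.p6, 250 bases before to 50 after the start, were matched for 33 of the 43 members, in 37 promoters. Cd40 and Tnfrsf11b had no entry. Motifs were searched on both strands as TTTCNNTTTC (interferon-stimulated response element core), TTCNNNGAA (gamma-activated site), GGGNNTTTCC and GGGNNTTCCC (both κB), the last pair of which can overlap. Among 32851 promoters, 3.44%, 8.30%, 1.63% and 1.75% held them, and of the 37 member promoters 4, 9, 3 and 2 did. Tnfrsf1b held TTTCGCTTTC and TTCCCGGAA, and Tnfsf13b held GAAAGTGAAA in 1 of its 2 promoters, the one printed here. Tnfsf10, Tnfrsf21 and Tnfrsf11a held none of these letters in this window. The sequences are at chr3:27316827-27317126 (plus strand, Tnfsf10), chr17:43016305-43016604 (plus, Tnfrsf21), chr8:10006383-10006682 (plus, Tnfsf13b), chr1:105780473-105780772 (plus, Tnfrsf11a) and chr4:145246821-145247120 (minus, Tnfrsf1b), and read 5′ to 3′ with capitals at the matched letters. A match describes the letters and not a bound site.
Tnfsf10: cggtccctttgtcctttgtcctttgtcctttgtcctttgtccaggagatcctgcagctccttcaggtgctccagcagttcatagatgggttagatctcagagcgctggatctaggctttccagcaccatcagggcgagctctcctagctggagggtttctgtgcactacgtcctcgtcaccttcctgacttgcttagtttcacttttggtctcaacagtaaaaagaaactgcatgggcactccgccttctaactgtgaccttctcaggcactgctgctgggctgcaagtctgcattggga
Tnfrsf21: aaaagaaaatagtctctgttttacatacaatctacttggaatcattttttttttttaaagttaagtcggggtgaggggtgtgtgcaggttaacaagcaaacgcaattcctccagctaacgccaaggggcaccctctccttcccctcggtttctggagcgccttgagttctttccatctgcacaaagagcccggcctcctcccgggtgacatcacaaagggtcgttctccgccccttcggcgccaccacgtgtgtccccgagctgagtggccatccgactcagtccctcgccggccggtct
Tnfsf13b: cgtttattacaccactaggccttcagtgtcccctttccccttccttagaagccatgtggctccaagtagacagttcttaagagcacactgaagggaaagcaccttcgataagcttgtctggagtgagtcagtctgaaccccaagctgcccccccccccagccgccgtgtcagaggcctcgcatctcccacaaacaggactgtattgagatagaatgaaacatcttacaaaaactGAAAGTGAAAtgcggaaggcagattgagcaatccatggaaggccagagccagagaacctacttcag
Tnfrsf11a: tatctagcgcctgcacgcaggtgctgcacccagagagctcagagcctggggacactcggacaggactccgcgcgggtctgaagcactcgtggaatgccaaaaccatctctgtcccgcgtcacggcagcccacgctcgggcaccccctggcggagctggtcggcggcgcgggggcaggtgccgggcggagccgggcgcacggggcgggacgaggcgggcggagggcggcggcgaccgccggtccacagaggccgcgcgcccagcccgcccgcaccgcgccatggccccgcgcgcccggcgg
Tnfrsf1b: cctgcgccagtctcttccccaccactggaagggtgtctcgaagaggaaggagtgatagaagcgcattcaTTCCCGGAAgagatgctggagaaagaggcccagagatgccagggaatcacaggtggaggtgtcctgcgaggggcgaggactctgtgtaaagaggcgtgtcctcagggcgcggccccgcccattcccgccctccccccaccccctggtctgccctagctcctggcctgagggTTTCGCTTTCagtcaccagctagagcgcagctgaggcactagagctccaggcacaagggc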

How the data were processed

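RNA was sequenced from 10 obstructed kidneys, 5 control and 5 DMM, grouped by the labels, and the methods name the genome mm10. The submitters' processing notes name HISAT2 2.0.5, while the counting tool, annotation release and strand setting are not given in the sources used here, so antisense overlaps cannot be told apart. Counts per gene were deposited without normalization, and the authors also deposited FPKM, a signal in the form of group means, and columns of their own DESeq2 fold changes and p-values, which were not used. To learn which libraries enter the authors' means, each mean was solved over 28001 genes as a sum of the libraries' counts with 1 weight a library. Counts were filtered by filterByExpr, scaled by TMM and tested in edgeR 4.0.16 by the quasi-likelihood F test with Benjamini-Hochberg adjustment over all tested genes. A gene was called at adjusted p under 0.05 and a fold above 1.5. SE was taken from the log2 fold change and its F statistic, and log2 CPM of lists used a prior count of 2. DESeq2 1.42.0, other scalings (RLE, library size alone) and filters (any gene with a count, above 1 CPM in 5 libraries), each library left out, no minimum fold and the replicate number as a block were alternatives. The steps were tested on simulated data. Each p-value measures the spread between mice, of which the methods name 5 independent replicates a group. No 2 libraries agreed within sampling noise.

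Members given in full were those called over either set, those with unadjusted p under 0.05 and a fold above 1.5 over all 10, Tnf, which the study also measured, the 3 ligands and 5 receptors of highest median FPKM over 10 libraries, and tested partners of called members. Of each further list, at most 5 called genes of smallest p over the 8 were to be named. The members and lists were chosen with earlier results of these data known. Further lists held genes of the pathway, interferon-induced genes, p53 targets and markers of 13 cell types. Members with many more counts than others have less counting error, and those with few counts were described by counts alone.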

Additional observations from a re-analysis of the deposited data

Results flagged for a closer look

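A single library lay far from the other 4 of its group in 12 of 70 groups of 5 (35 tested members in 2 groups), judged by the gap to the nearest library as a share of the whole range. A nominal rate of 1 in 20 groups gives 3.5 here, but the members share libraries. The same count over all tested genes was not made, so these flags describe libraries and are not a result about the members. DMM replicate 4 accounted for 7 of the 12. It was low in Tnfrsf1a (129 CPM against 185 to 204, share 0.743), Ltbr (69.2 against 108 to 121, 0.739), Tnfsf12 (5.01 against 16.7 to 20.4, 0.758) and Tnfrsf12a (19.9 against 92.0 to 119, 0.731). It was high in Tnfrsf22 (30.7 against 5.38 to 9.07, 0.854), Tnfrsf23 (47.6 against 6.23 to 12.6, 0.846) and Tnfrsf26 (23.0 against 1.98 to 4.57, 0.877). Across 35 members its deviation had a rho of -0.525 with the GC content of the longest transcript, against 0.554 for DMM replicate 3, 0.405 for control replicate 3 and -0.183 to 0.304 for the others. The part of base composition was not tested.

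DMM replicate 1 was high in Tnfsf10 (164 CPM against 66.4 to 89.9, share 0.760) and in Tnfsf9 (2.47 against 1.39 to 1.64, 0.763), in both cases at the level of the controls. Control replicate 4 was high in Tnfrsf23 (34.6 against 6.47 to 11, 0.839) and in Tnfsf12 (21.2 against 16.2 to 17.3, 0.783). DMM replicate 5 was high in Fas (15.9 against 8.58 to 10.3, 0.763).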

How the results depend on the processing

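Over all 10 libraries, 0 members and 0 genes were called by edgeR in either direction with the replicate block, with no minimum fold, or with the other scalings and filters, and DESeq2 called 1 member higher and 1 lower, with 14 and 36 of all genes. The 8 libraries gave 1 and 6 members and 452 and 590 genes. Without single libraries the counts ran from 0 to 1 member higher, 0 to 4 lower, 0 to 50 genes higher and 0 to 436 lower, the upper values without DMM replicate 1. At an unadjusted p under 0.05 and a fold above 1.5, 9 members were lower over all 10, 14 over the 8 and 4 to 15 without single libraries, and 1 was higher, but 0 with library size alone. By the same rule 678 of all 16505 tested genes were lower and 315 higher over all 10. Over the 8, 1198 of all 16550 were lower and 1067 higher. Over the 8 libraries DESeq2 called 11 members lower, with 749 genes higher and 911 lower, and library size alone 276 genes higher. Without single libraries 2 to 17 members were lower, 131 to 1129 genes higher and 276 to 1281 lower, the upper values without DMM replicate 4. The causes were not tested. By CPM per kilobase, 30 members were at or above 1 in controls, as by FPKM. For single members, 537 values kept direction and side of the threshold, 27 lost a call, 27 gained one and 22 changed sign.

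With the replicate block over the 8 libraries, 0 members were called higher, 0 lower, and 0 genes either way. Neither the labels nor the methods state a pairing of same-numbered libraries. Their deviations correlated at -0.06, 0.079, 0.34, 0.12 and -0.22, and 1 of 5 controls correlated best with its own number. So few values, some from libraries that stood apart over all genes, cannot show whether same-numbered kidneys were handled together.

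Among the members given in full, signs changed for 6, none of them called. Without single libraries the log2 fold change ran from -0.13 to 0.021 for Tnfrsf1a, -0.082 to 0.092 for Ltbr, -0.52 to 0.38 for Tnfrsf22, -0.70 to 0.91 for Tnfrsf23 and -0.20 to 0.12 for Tnfsf12 over all 10. From the 8 it ran from -0.11 to 0.12 for Ltbr, -0.74 to 0.40 for Tnfrsf22, -1.14 to 0.86 for Tnfrsf23, -0.38 to 0.070 for Tnfsf12 and -0.068 to 0.42 for Tnfrsf12a. The replicate block gave -0.073 and -0.029 for Tnfrsf22 (10 and 8 libraries), -0.13 for Tnfrsf23 (8), and -0.017 and -0.46 for Tnfrsf12a. Library size alone over the 8 gave -0.040 for Tnfrsf22 and -0.076 for Tnfrsf23. Members with few counts, such as Tnfsf11, are limited by depth.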

Other observations

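Looked at after the values were seen, 7 of the 35 tested members had control replicate 4 and DMM replicate 4 as their 2 highest libraries, namely Tnfsf14, Tnfrsf22, Tnfrsf23, Tnfrsf26, Tnfrsf8, Tnfrsf9 and Eda2r, or 20%, against 6.59% of all tested genes. Tnfrsf26, next to Tnfrsf22 and Tnfrsf23, had 3.71, 4.94, 1.69, 12.0 and 4.18 CPM in controls and 4.57, 3.21, 1.98, 23.0 and 2.74 in DMM kidneys. Of the genes on either side of this cluster, Cars was also highest in DMM replicate 4 and control replicate 4 but ranged only from 23.1 to 31.7 CPM, and Osbpl5, at 67.4 to 83.2 CPM, was lowest in DMM replicate 4. Tnfsf14 (LIGHT) had 3.03 CPM in control replicate 4 and 2.24 in DMM replicate 4, against 0.741 to 1.71 in the other libraries. Neutrophil markers summed to 25.0, 25.1, 21.9, 115 and 34.6 CPM in controls and 31.9, 18.2, 28.7, 102 and 26.8 in DMM kidneys, with Csf3r at the highest CPM of 6 and 1 of the 6 at 0 in 7 libraries, and so were highest in the same 2 libraries. Their part in these members was not tested.

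By edgeR over the 8 libraries, the median log2 fold change was -0.80 for 7 dendritic cell markers (2 called lower), -0.55 for 7 NK cell markers (1 called lower), -0.82 for 4 plasma cell markers and -0.12 for 5 tested neutrophil markers, with 0 called in the last 2 lists (2 and 0 lower at an unadjusted p under 0.05 and a fold above 1.5, and 1 and 0 by DESeq2), though the plasma cell marker Xbp1 lay above 0 (0.40). Fibroblast and myofibroblast markers had a median of -0.63 with 1 of 7 called lower, and 4 of 8 markers of the loop, distal tubule and collecting duct were called higher with a median of 1.08. Over the 8 DESeq2 called 4 dendritic cell, 1 NK cell and 3 fibroblast and myofibroblast markers lower and 5 of the loop, distal tubule and collecting duct higher. Injured tubule, podocyte and endothelial markers had medians of -0.028, -0.070 and 0.12, with 0 called among 8, 5 and 6 genes (1, 0 and 0 at an unadjusted p under 0.05 and a fold above 1.5, and 1, 0 and 0 by DESeq2). Over all 10 libraries edgeR called 0 genes of these 9 lists and DESeq2 1 dendritic cell marker, lower, and the medians were -0.57, -0.54, -0.75, -0.060, -0.43, 0.51, 0.11, 0.075 and 0.10 in the order given here. At an unadjusted p under 0.05 and a fold above 1.5, 2 dendritic cell, 3 NK cell and 1 plasma cell marker were lower over the 10 and 0 genes of the other lists passed in either direction.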
